A study of Mus musculus with 9 samples.

Results

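The comparison described here sets the ovaries of mice on postnatal day (PD) 16 against those on PD14. These are the last and first day of a 3-day series in which the follicular antrum, the fluid-filled cavity of the growing follicle, first forms. Members of the comparison were the 3 libraries labelled PD16 and the 3 labelled PD14, 6 of the 9 libraries in the series. The other 3 came from PD15. All animals were untreated mice of the Kunming stock, an outbred laboratory mouse, and the labels give no genotype or agent for any group. Genes with a mean above 1 FPKM (fragments per kilobase of exon, scaled to the mapped fragments of each library) on PD14 or PD16 were tested, which kept 15232 of 52025 listed genes, 12410 of them protein-coding.

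The labels name the tissue as ovary but the source as granulosa cells, whereas the study's methods describe whole ovaries. Oocyte genes were abundant in all 6 libraries: Zp3, which encodes a protein of the zona pellucida, averaged 349 ± 38.5 FPKM (SD, n = 3) at PD14 and 276 ± 12.6 at PD16, and Gdf9, an oocyte growth factor, averaged 242 ± 30.6 and 212 ± 7.68. The theca gene Cyp17a1 was between 22.8 and 46.5 FPKM in the 6 libraries. The values are therefore read as those of an ovary with several cell types, in which fewer cells of a type and less RNA per cell cannot be told apart.

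The mouse follicle consists of an oocyte, the granulosa cells that surround it and, outside a basal lamina, theca cells. Granulosa cells divide, make anti-Müllerian hormone and inhibins, and respond to follicle-stimulating hormone (FSH) through cyclic AMP; theca cells supply the androgens that granulosa cells convert to oestradiol. C-type natriuretic peptide, made by granulosa cells from Nppc, keeps the oocyte in meiotic arrest and is one of the factors the study links to antrum formation.

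Depth, recovered from the step size of the low values, was 20.4 to 28.7 M fragments per library. Libraries of 1 day correlated at 0.985 to 0.988 across genes on the log2 scale, and PD14 libraries correlated with PD16 libraries at 0.977 to 0.984. The study describes the replicates as biologically independent ovaries, and the p-values measure the spread between them. Whether each ovary came from a different animal is not stated.

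A total of 345 protein-coding genes were higher and 258 were lower at PD16 than at PD14, with a median change of 0.42 and -0.42 on the log2(FPKM + 1) scale. A gene was called at an adjusted p under 0.05 in limma, with the Benjamini-Hochberg adjustment made over all 15232 genes, and these calls were 2.78% and 2.08% of the protein-coding genes tested, or 4.86% together. Over all genes, 393 were higher (2.58%) and 308 lower (2.02%), 4.6% of those tested, and 23.1% had an unadjusted p under 0.05. Most changes were small, since 19 protein-coding genes rose and 6 fell by 1 or more on the log2 scale, 0.201% of those tested. The median change of all genes tested was 0.01. The PD14 and PD16 libraries did not overlap for any called gene, nor for 31.0% of all protein-coding genes tested.

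The number of calls depended on single libraries. Without PD14 replicate 3, 71 genes were higher and 43 lower, and without PD16 replicate 1, 61 were higher and 44 lower. Of the protein-coding genes, 66 were called in the full set and again when each of the 6 libraries was left out, 44 of them higher and 22 lower, which is 0.532% of those tested. The number of these 6 fits in which a call held is given beside each called gene described below. Gene lists are described by their members above the 1 FPKM filter. An exact permutation test of 3 libraries against 3 cannot give a p below 0.1, so the adjusted p-values rest on the spread that limma shares across genes.

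**Figure D1:**
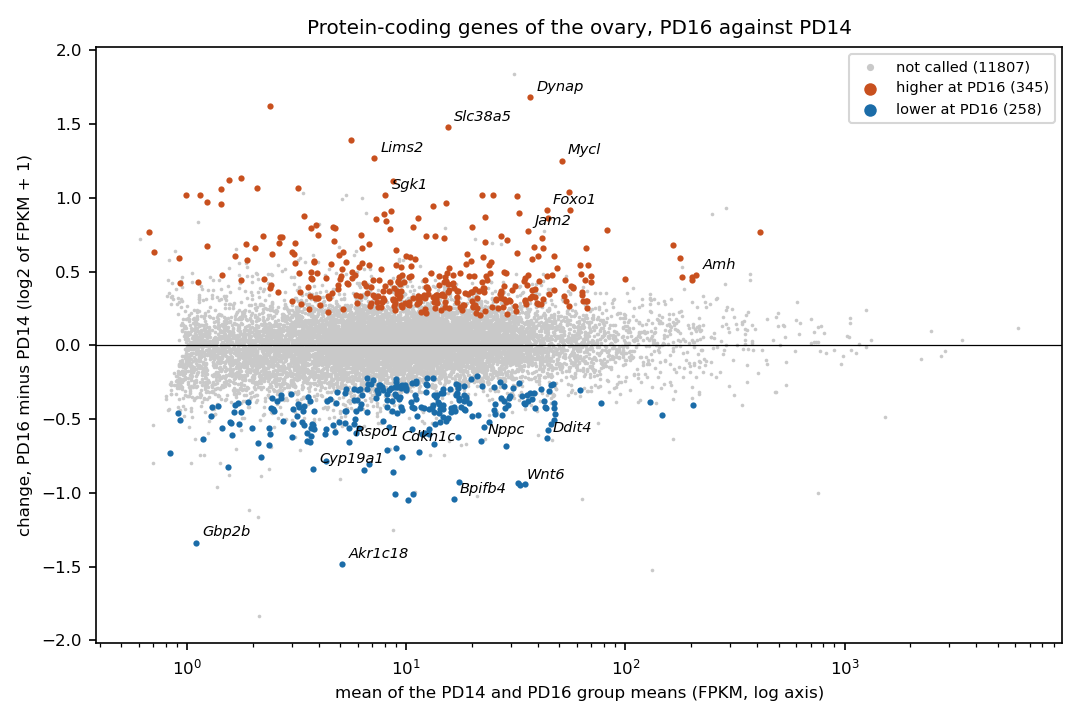
Change from PD14 to PD16 (y axis, log2 of FPKM + 1) against the mean level (x axis, FPKM, log axis) for each of 12410 protein-coding genes, with the 345 called higher in orange, the 258 called lower in blue and the rest in grey. Most called genes lie within 1 log2 unit of 0, and Dynap and Akr1c18 are the highest and the lowest of the called genes.

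Foxo1, a forkhead transcription factor that is abundant in granulosa cells of growing follicles, stood at 31.9, 27.8 and 30.4 FPKM in the PD14 libraries and at 58.1, 54.0 and 60.3 in the PD16 libraries. The 3 PD16 libraries lay well above the PD14 libraries, and the PD15 libraries (36.9 to 44.2 FPKM) lay between them. The change was 0.92 ± 0.08 (SE) on the log2 scale, with an adjusted p of 0.0041 by limma, and it held in 6 of 6 fits. Sgk1, a serum- and glucocorticoid-induced kinase known as an early target of FSH in granulosa cells, was at 5.24, 5.12 and 4.48 FPKM on PD14 and at 9.48, 12.6 and 11.3 on PD16. Its groups did not overlap, and the rise of 1.02 ± 0.10 (adjusted p = 0.0041 by limma) also held in 6 of 6 fits.

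Dynap, whose product is a dynactin-associated membrane protein, had the largest rise among the called protein-coding genes, from 10.9, 21.1 and 19.9 FPKM to 66.5, 53.3 and 49.0. The change was 1.68 ± 0.22 (adjusted p = 0.0098 by limma), and the call held in 6 of 6 fits. Slc38a5 and Slc38a3, which encode transporters of glutamine and other neutral amino acids, rose by 1.48 ± 0.28 and 1.39 ± 0.24 on the log2 scale. The Slc38a3 call held in 3 of 6 fits. Slc38a5 was at 4.41, 11.3 and 8.04 FPKM on PD14 and at 30.6, 19.1 and 19.4 on PD16, and its call did not hold without PD14 replicate 3 (limma adjusted p = 0.0817) or without PD16 replicate 1 (0.0809). In a list of 33 amino acid transporters, drawn up after these values were seen, 27 were tested, 3 rose and 1 fell, against 2.78% and 2.08% of all protein-coding genes, and the median change was 0.05. Besides these 2 genes, Slc38a2 rose by 0.25 (0 of 6 fits) and Slc6a14 fell by 0.52 (1 of 6 fits) on the log2 scale, and leaving out 1 library left 0 to 2 of the list called higher.

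Metrnl, which encodes the secreted protein meteorin-like, rose from 38.4 ± 4.94 to 73.2 ± 3.09 FPKM (SD, n = 3). Lims2, a focal adhesion adaptor, rose from 3.82 ± 1.03 to 10.5 ± 1.20, and Gal, which encodes the neuropeptide galanin, rose from 0.71 ± 0.08 to 2.82 ± 0.83 FPKM. All 3 calls held in 6 of 6 fits. Nos2, the inducible nitric oxide synthase, and Creb3l3, a membrane-bound transcription factor of the endoplasmic reticulum, were named after their values were seen and rose by 0.71 and 0.79 on the log2 scale, both in 6 of 6 fits.

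Bpifb4, a secreted protein of the BPI fold family, fell from 22.9, 22.1 and 22.4 FPKM to 12.9, 9.09 and 9.52. The PD15 libraries (9.61 to 11.4 FPKM) were already at the PD16 level, and the change of -1.04 ± 0.11 (adjusted p = 0.0057 by limma) held in 6 of 6 fits. Retsat, which encodes retinol saturase, fell from 13.1, 10.1 and 13.2 FPKM to 5.30, 4.57 and 6.75, and it too was lower on PD15 (3.34 to 4.86) than on PD14. Its call held in 3 of 6 fits.

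Gbp2b, an interferon-inducible GTPase, fell from 2.83, 1.09 and 2.16 FPKM to 0.193, 0.109 and 0.181, a change of -1.34 ± 0.22 that held in 3 of 6 fits. None of 27 tested genes of the interferon response list was called by limma (0 had an unadjusted p under 0.05). Rnd2, a small GTPase, was at 43.6, 37.9 and 46.8 FPKM on PD14 and at 22.0, 26.1 and 18.1 on PD16, and the fall of 0.93 on the log2 scale held in 5 of 6 fits. Tmprss13, a membrane serine protease, fell from 9.75, 8.28 and 8.38 FPKM to 5.17, 5.05 and 3.69, and the zinc transporter Slc30a2 from 1.98, 2.43 and 2.27 to 0.989, 0.618 and 0.871. These 2 calls held in 6 and 5 of 6 fits.

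**Figure D2:**
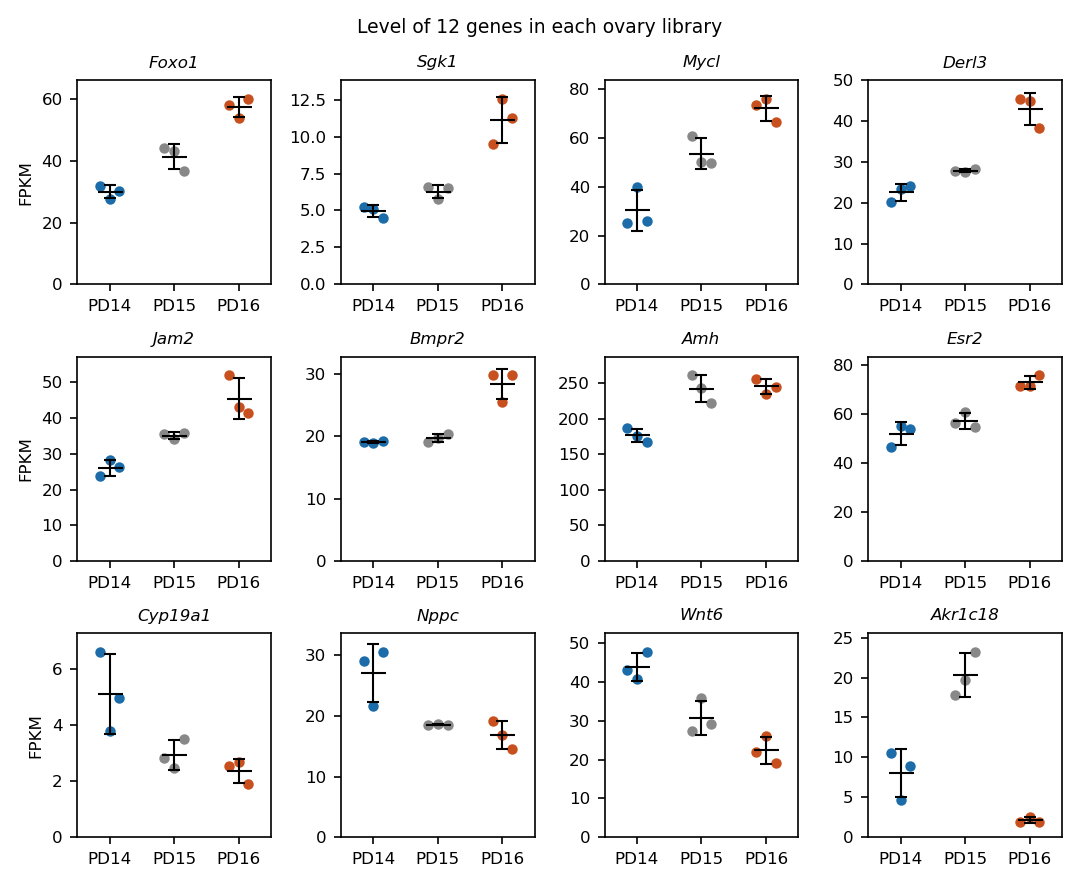
Level (FPKM, linear axes from 0) of 12 genes in each library, with PD14 in blue, PD15 in grey and PD16 in orange; the black bar is the mean and the whiskers are 1 SD of 3 libraries. The PD14 and PD16 libraries do not overlap for any of the 12 genes, and Akr1c18 is the single one with its highest mean on PD15.

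Of 13 genes of the MYC network, 4 rose and none fell, where 2.78% of all protein-coding genes rose. Mycl, a MYC family transcription factor, was at 25.3, 39.8 and 25.9 FPKM on PD14 and at 73.7, 76.2 and 66.6 on PD16. The groups were far apart, and the rise of 1.25 ± 0.16 (adjusted p = 0.0097 by limma) held in 6 of 6 fits. Mycn rose from 17.7 ± 1.67 to 27.3 ± 1.08 FPKM, Myc from 17.2 ± 2.56 to 28.6 ± 5.19, and Max, the partner with which MYC proteins bind DNA, from 24.8 ± 0.05 to 31.1 ± 0.34. These calls held in 3, 2 and 5 of 6 fits. The list was drawn up after these values were seen, and its calls ranged from 1 to 4 when 1 library was left out, with 1 without PD16 replicate 1.

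Ribosome biogenesis factors, the proteins that process ribosomal RNA and assemble ribosomal subunits, were also listed after values were seen. Of 111 tested, 20 rose and none fell, 18.0% of the list against 2.78% of all protein-coding genes called higher, and 99 had a change above 0, against 53.1% of all protein-coding genes. The median change of the list was 0.18 and that of all protein-coding genes 0.01. Nop56, a core protein of the box C/D small nucleolar ribonucleoproteins, rose from 34.3 ± 1.52 to 46.7 ± 1.81 FPKM, and Gnl3, which encodes nucleostemin, rose from 33.5 ± 1.17 to 44.0 ± 1.85. The Nop56 call held in 4 of 6 fits and the Gnl3 call in 3. Efl1, the GTPase that acts with Sbds to release Eif6 from the large subunit, had the largest change of the list, 0.65 on the log2 scale, and held in 6 of 6 fits. The 3 PD16 libraries had list means of 0.06 to 0.13 log2 units above the gene means of the 6 libraries, and the 3 PD14 libraries were 0.08 to 0.10 below. The number called fell to 3 without PD14 replicate 1, to 3 without PD14 replicate 3 and to 1 without PD16 replicate 1, with list medians from 0.16 to 0.19.

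Of 33 tested genes of protein folding in the endoplasmic reticulum (ER), from a list of 34, 7 rose and none fell, 21.2% against 2.78% of all protein-coding genes called higher. Derl3, a derlin that moves misfolded proteins out of the ER, was at 20.2, 23.3 and 24.1 FPKM on PD14 and at 45.5, 44.9 and 38.3 on PD16. Its change of 0.90 ± 0.08 (adjusted p = 0.0041 by limma) held in 6 of 6 fits. The remaining 6 were Dnajc3, a co-chaperone of the ER lumen (0.60), Herpud1 (0.43), the stress transcription factor Xbp1 (0.34), the ubiquitin ligase Syvn1 (0.31), the oxidase Ero1l (0.29) and Edem1, which takes part in ER-associated degradation (0.29). Herpud1 kept its call in 4 of 6 fits, Dnajc3, Ero1l and Edem1 in 1 of 6, and Xbp1 and Syvn1 in 0 of 6.

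Of the 33 members, 29 had a change above 0, against 53.1% of all protein-coding genes, and the median was 0.24. Hspa5, the main ER chaperone, was not called: it stood at 328, 289 and 305 FPKM on PD14 and at 474, 461 and 362 on PD16, a change of 0.48 ± 0.15 with an adjusted p of 0.092 by limma. PD16 replicate 3 was the lowest of its day for the list, with a mean of 0.01 log2 units above the gene means, against 0.17 and 0.16 for replicates 1 and 2. The count was 1 without PD14 replicate 3, 1 without PD16 replicate 1 and 6 without PD16 replicate 3, and the median was 0.20 to 0.31.

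Promoter stretches are shown for 4 of the 9 members found to hold the ER stress element, a site known to bind NF-Y and ATF6. They are the 3 called members with a match, Derl3, Dnajc3 and Syvn1, and Hspa5, which was not called. The element was searched as CCAAT and CCACG with 9 bases of any kind between them. Both strands of the 250 bases before the start of transcription were searched. The motif was added to the search after values were seen, and each of its matches also holds CCAAT. The promoters are from RefSeq (GRCm38.p6), 5′ to 3′ on the strand of the gene, and capitals mark the match, which in Derl3 lies on the opposite strand. They span chr10:75893192-75893311 (Derl3), chr14:118937777-118937896 (Dnajc3), chr2:34771970-34772089 (Hspa5) and chr19:6046456-6046575 (Syvn1), all on the plus strand.
Derl3: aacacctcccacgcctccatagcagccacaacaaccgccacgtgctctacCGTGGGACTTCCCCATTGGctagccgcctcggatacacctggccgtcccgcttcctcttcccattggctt
Dnajc3: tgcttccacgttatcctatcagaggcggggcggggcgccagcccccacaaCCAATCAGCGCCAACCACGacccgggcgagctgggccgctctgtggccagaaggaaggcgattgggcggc
Hspa5: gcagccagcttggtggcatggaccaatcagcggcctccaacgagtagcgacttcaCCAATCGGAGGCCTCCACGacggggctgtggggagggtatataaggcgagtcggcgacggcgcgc
Syvn1: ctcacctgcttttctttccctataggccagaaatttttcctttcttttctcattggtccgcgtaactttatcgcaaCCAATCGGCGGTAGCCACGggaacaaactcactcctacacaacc

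By gene symbol, 9606 of 12408 tested protein-coding genes had a promoter in the table. Of the 33 tested ER members, 27 had one and 9 of these held the element (33.3%), against 20 of the 9606 (0.208%) and 0.113% of all 32851 promoters in the table. Among all genes called higher it was found in 3 of 267 with a promoter (1.12%), Derl3, Dnajc3 and Syvn1, and among those called lower in 0 of 198. The pentamer CCAAT alone, bound by NF-Y, was in 40.5% of tested promoters, in 40.4% of the higher genes and in 47.0% of the lower genes. The motif CAAGGTCA, which NR5A1 binds, was in 1.17%, 0.375% and 2.02%. A match says only that these letters stand in the window.

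In the heat shock response, 3 of 19 tested members rose and none fell, against 2.78% of all protein-coding genes called higher. A change above 0 was found for 18 of the 19, against 53.1% of all protein-coding genes, and the medians were 0.20 and 0.01. Hsph1, a chaperone of the Hsp110 family, rose from 29.6 ± 3.87 to 44.9 ± 4.36 FPKM, Chordc1, an Hsp90 co-chaperone, from 10.7 ± 0.60 to 15.4 ± 1.32, and Bag3, a co-chaperone of Hsp70, from 14.9 ± 0.79 to 19.5 ± 0.53. Hsph1 and Chordc1 held in 2 of 6 fits and Bag3 in 1. Without PD14 replicate 3, PD16 replicate 1 or PD16 replicate 2, none of the 3 was called.

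Of 56 tested genes of mitosis, 3 were called higher and none lower, against 2.78% of all protein-coding genes called higher. Of the 56, 51 had a change above 0, against 53.1% of all protein-coding genes, and the median was 0.19. Kif2c, a kinesin of the centromere, rose from 10.7 ± 0.39 to 14.3 ± 1.46 FPKM, Anln, which encodes anillin of the cleavage furrow, from 6.73 ± 0.15 to 9.28 ± 1.07, and Smc4, a subunit of condensin, from 37.5 ± 1.39 to 47.0 ± 3.88. Each of these calls held in 1 of 6 fits. The proliferation marker Mki67 was at 23.3, 25.3 and 22.8 FPKM on PD14 and at 33.8, 31.8 and 26.2 on PD16, with an adjusted p of 0.10 by limma. PD16 replicate 3 lay at -0.05 for the list, level with the highest PD14 library, whereas PD16 replicates 1 and 2 lay at 0.16 and 0.18. Without PD16 replicate 3, 11 members were called; without PD14 replicate 1 or 3, or PD16 replicate 1 or 2, none was. Of 53 DNA replication genes, 0 were called by limma (12 had an unadjusted p under 0.05), 47 were above 0 and the median was 0.13. PD16 replicate 3 lay at -0.12 for this list, below all 3 PD14 libraries (-0.10 to -0.03), whereas PD16 replicates 1 and 2 lay at 0.14 and 0.19. Without PD16 replicate 3, 7 of the replication genes were called and the median was 0.24. Of 15 tested D cyclins and inhibitors of the cell cycle, 1 rose and 1 fell, with a median of 0.00. Among all protein-coding genes, 2.78% were called higher and 2.08% lower. Rb1, the retinoblastoma gene, whose product restrains entry into S phase, rose from 7.83 ± 0.37 to 9.94 ± 0.71 FPKM (adjusted p = 0.0495 by limma), a call that held in 0 of 6 fits. The cell cycle inhibitor Cdkn1c (p57) fell from 12.6, 10.9 and 10.4 FPKM to 6.53, 6.68 and 6.52, a change of -0.69 ± 0.07 that held in 6 of 6 fits.

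**Figure D3:**
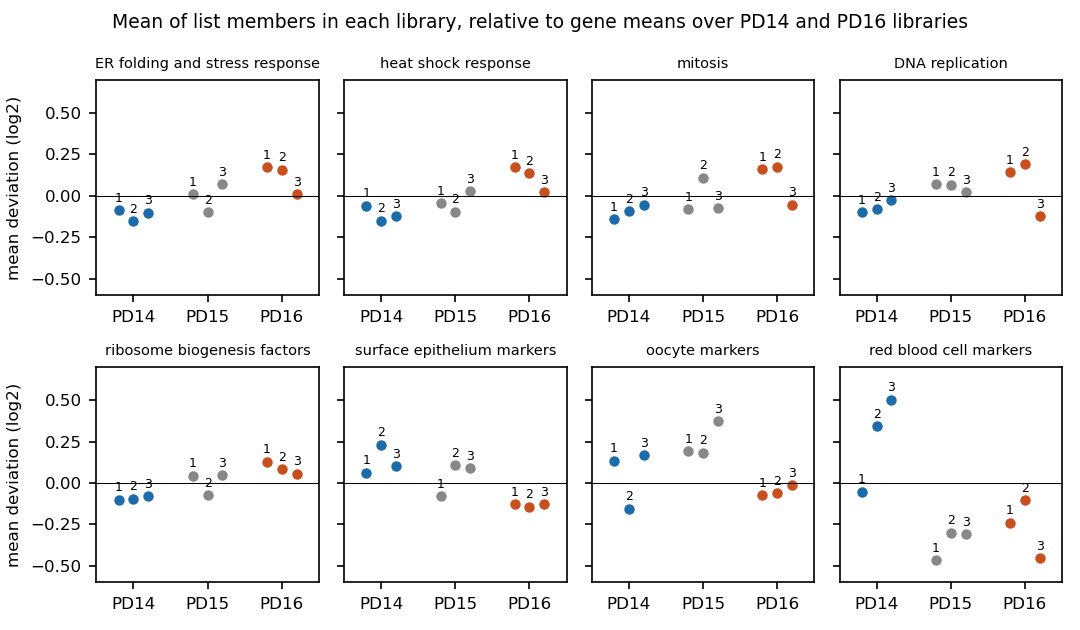
Mean over the members of 8 gene lists in each library (y axis, log2 of FPKM + 1 relative to each gene's mean over the PD14 and PD16 libraries), with PD14 in blue, PD15 in grey, PD16 in orange and the replicate number above each point. PD16 replicate 3 lies below the other PD16 libraries for mitosis, DNA replication, ER folding and heat shock. All PD16 libraries lie above all PD14 libraries for ER folding, heat shock and ribosome biogenesis, and for mitosis PD16 replicate 3 is level with PD14 replicate 3.

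In the pathway of FSH and luteinising hormone, 2 of 24 tested members rose and 1 fell, against 2.78% higher and 2.08% lower among all protein-coding genes. Adcy9, an adenylate cyclase that makes cyclic AMP, rose from 7.65 ± 0.36 to 10.7 ± 0.49 FPKM, and Pde8a, a phosphodiesterase that degrades it, fell from 16.4 ± 0.37 to 12.9 ± 0.62, beside the rise of Sgk1 described above. Adcy9 held in 4 of 6 fits and Pde8a in 5. The FSH receptor gene Fshr was not called: it was at 11.6, 15.0 and 16.0 FPKM on PD14 and at 21.2, 16.9 and 15.6 on PD16, so the groups overlapped (change 0.31 ± 0.13, adjusted p = 0.18 by limma). The receptor gene Lhcgr was at 14.4 ± 1.37 and 9.78 ± 1.76 FPKM (adjusted p = 0.10).

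In the inhibin, activin, AMH and BMP system, 5 of 33 tested members rose and none fell, 15.2% of the list against 2.78% of all protein-coding genes called higher. Amh, the anti-Müllerian hormone of granulosa cells in small growing follicles, was at 186, 175 and 168 FPKM on PD14 and at 256, 235 and 244 on PD16, already at 222 to 261 on PD15. Its change was 0.47 ± 0.08 (adjusted p = 0.022 by limma), and the call did not hold without PD14 replicate 3 (0.0842) or PD16 replicate 1 (0.0777). Bmp15, a ligand made by the oocyte, rose from 49.7 ± 3.03 to 65.4 ± 4.27 FPKM, a call that held in 1 of 6 fits. Of the receptors, Bmpr2 rose from 19.1 ± 0.19 to 28.4 ± 2.47 and held in 6 of 6 fits, and Bmpr1b rose from 19.2 ± 0.63 to 27.2 ± 3.67 and held in 3. Id3, a target gene of BMP signalling, rose from 50.8 ± 4.31 to 81.1 ± 9.00 FPKM and held in 4 of 6 fits. Inhba, the activin subunit gene, was at 122, 53.9 and 85.5 FPKM on PD14 and at 46.3, 36.6 and 36.4 on PD16; the groups did not overlap, but its adjusted p was 0.063. The count of the list was 1 without PD14 replicate 3 and 1 without PD16 replicate 1.

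Genes of steroid synthesis moved in both directions, with 1 of 18 higher and 3 lower, against 2.78% and 2.08% of all protein-coding genes. Cyp19a1, the aromatase that makes oestrogens, was at 6.61, 3.77 and 4.95 FPKM on PD14 and at 2.54, 2.69 and 1.89 on PD16. All PD16 libraries were below all PD14 libraries, and the change was -0.84 ± 0.17 (adjusted p = 0.031 by limma). The call held without PD14 replicate 2 and was lost in the other 5 fits, with limma adjusted p-values from 0.0595 (without PD16 replicate 2) to 0.0993 (without PD14 replicate 3). Akr1c18, which inactivates progesterone, was at 10.5, 4.73 and 8.95 FPKM on PD14, rose to 17.9, 19.7 and 23.2 on PD15 and was at 1.95, 2.55 and 1.89 on PD16. Its fall from PD14 to PD16 was -1.48 ± 0.23 (adjusted p = 0.015 by limma); the limma adjusted p was 0.0592 without PD14 replicate 3 and 0.0579 without PD16 replicate 1, and the call held in the other 4 fits. Fdxr, the reductase that feeds electrons to mitochondrial P450 enzymes, fell from 45.3 ± 0.90 to 36.7 ± 1.09, and Hsd11b2, which inactivates glucocorticoids, rose from 25.1 ± 2.78 to 39.1 ± 3.45 FPKM. The Fdxr call was lost in all 6 fits, with limma adjusted p-values from 0.0851 to 0.119, and the Hsd11b2 call held in 2.

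Cyp11a1, which makes pregnenolone from cholesterol, was at 50.8, 48.4 and 41.2 FPKM on PD14 and at 46.6, 16.8 and 35.0 on PD16, so the groups overlapped (change -0.61 ± 0.33, adjusted p = 0.30 by limma). Of 28 tested genes of cholesterol synthesis and uptake, 1 fell and none rose, near the 2.08% of all protein-coding genes called lower. It was Tm7sf2, a sterol reductase (-0.40 on the log2 scale, 2 of 6 fits). Among nuclear receptors, listed after values were seen, Esr2, the main oestrogen receptor of granulosa cells, rose from 52.0 ± 4.60 to 72.9 ± 2.58 FPKM. Pparg rose from 7.51 ± 0.78 to 14.0 ± 3.04 FPKM. Esr2 held in 5 of 6 fits and Pparg in 3.

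The natriuretic peptide gene Nppc fell from 29.0, 21.6 and 30.6 FPKM to 19.1, 16.9 and 14.6, and the PD15 libraries were at 18.5 to 18.7. The change was -0.65 ± 0.13 (adjusted p = 0.029 by limma). It held without PD14 replicate 2 and was lost in the other 5 fits, with limma adjusted p-values from 0.0575 (without PD16 replicate 1) to 0.0993 (without PD14 replicate 3). Its receptor gene Npr2 was at 22.0 ± 2.68 and 28.6 ± 1.73 FPKM (adjusted p = 0.12), and the clearance receptor gene Npr3 at 2.70 ± 0.41 and 1.76 ± 0.21 (adjusted p = 0.057), so neither was called. Of 9 tested genes of a list of natriuretic peptide signalling and meiotic arrest, Nppc was the single one called, where 2.08% of all protein-coding genes were called lower.

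Of 25 tested tight junction genes, 1 rose and 2 fell, where 2.78% of all protein-coding genes rose and 2.08% fell. Jam2, a junctional adhesion molecule, rose from 23.8, 28.3 and 26.2 FPKM to 52.1, 43.0 and 41.4, a change of 0.77 ± 0.09 (adjusted p = 0.0077 by limma) that held in 6 of 6 fits. Cgn, which encodes cingulin, fell from 12.3 ± 1.16 to 8.96 ± 0.31 FPKM, and the claudin gene Cldn11 from 4.51 ± 0.37 to 2.53 ± 0.41. The Cgn call held in 2 of 6 fits and the Cldn11 call in 0. Of 20 tested ion cotransporters, exchangers and channels, 1 rose and 1 fell, and of 9 sodium pump genes, 1 fell. Slc12a7, a potassium-chloride cotransporter, fell from 21.2 ± 0.83 to 15.4 ± 0.67 and held in 6 of 6 fits. Car14, a carbonic anhydrase, rose from 15.8 ± 2.68 to 30.1 ± 7.21, and Fxyd6, a regulator of the sodium pump, fell from 27.0 ± 0.79 to 18.1 ± 1.71 FPKM. These 2 calls held in 2 and 1 of 6 fits. None of 4 tested aquaporins was called by limma (2 had an unadjusted p under 0.05). Aqp2 was at 0.92, 0.76 and 0.73 FPKM on PD14 and at 0.59, 1.12 and 3.53 on PD16, so that PD16 replicate 3 alone held the high value (adjusted p = 0.55).

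Of 31 tested genes of fibrillar collagen and stromal matrix, 2 rose, where 2.78% of all protein-coding genes were called higher: Thbs1, which encodes thrombospondin 1, from 179, 172 and 153 FPKM to 218, 225 and 255, and Fbln1, which encodes fibulin 1, from 45.9, 48.2 and 51.5 to 59.9, 71.4 and 62.8. Neither call held in any of the 6 fits. A change above 0 was found for 10 of the 31, against 53.1% of all protein-coding genes, and the list median was -0.09. Of 24 tested hyaluronan and proteoglycan genes, Sdc3, a cell surface syndecan, rose from 13.8 ± 0.79 to 18.7 ± 0.70 FPKM, and of 22 basal lamina genes, Lamc3, a laminin chain, rose from 13.1 ± 1.25 to 17.8 ± 0.83. Sdc3 held in 4 of 6 fits and Lamc3 in 1. Of these 24 and 22 genes, 9 and 11 had a change above 0, with medians of -0.04 and -0.003. Among 29 matrix proteases and inhibitors, 2 rose (Adam17 and Adamts2) and 2 fell (Mmp15 and Mmp23), against 4.86% of all protein-coding genes called in either direction, with changes of 0.33 and 0.32 for Adamts2 and Adam17 and of -0.45 and -0.28 for Mmp15 and Mmp23. Mmp15 held in 3 of 6 fits, Adam17 and Adamts2 in 1 and Mmp23 in 0. Of the 29, 11 had a change above 0, and the median was -0.12.

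Of 15 tested genes of insulin-like growth factors and their binding proteins, 1 rose and 1 fell, and of 12 of prostaglandin synthesis and reception, 1 rose, against 2.78% higher and 2.08% lower among all protein-coding genes. Igf1, which acts with FSH on granulosa cells, rose from 18.7, 22.9 and 18.1 FPKM to 33.5, 26.3 and 25.6, with an adjusted p of 0.043 by limma that held in 1 of 6 fits. Stc2, which encodes stanniocalcin 2, fell from 3.72, 5.86 and 4.42 FPKM to 3.20, 2.26 and 2.59, also with 1 of 6 fits. Hpgd, which degrades prostaglandins, rose from 28.2, 31.7 and 32.6 FPKM to 61.9, 46.0 and 48.2; the groups lay apart and the call held in 3 of 6 fits. The clock gene Per1 rose from 4.71 ± 0.51 to 6.96 ± 0.93 FPKM, and it was the single one called of 18 tested circadian genes, in 2 of 6 fits, against 2.78% of all protein-coding genes called higher.

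Of 42 tested genes of Wnt, Notch and hedgehog signalling, 4 fell and 1 rose, against 2.08% of all protein-coding genes called lower and 2.78% called higher. Wnt6, a secreted Wnt ligand, was at 42.9, 40.7 and 47.7 FPKM on PD14 and at 21.9, 26.1 and 19 on PD16, and the change of -0.95 ± 0.13 (adjusted p = 0.010 by limma) held in 6 of 6 fits. Rspo1, an amplifier of Wnt signalling with a known part in ovary formation, fell from 6.90 ± 0.50 to 4.02 ± 0.21 FPKM and also held in 6 of 6. Wnt4, another ligand of the female gonad, fell from 35.2 ± 3.28 to 21.5 ± 2.15, and Sfrp1, a secreted Wnt antagonist, from 42.1 ± 2.48 to 32.6 ± 2.98. The Wnt4 call held in 3 of 6 fits and the Sfrp1 call in 1. The Notch target gene Hey2 rose from 12.6 ± 0.80 to 18.1 ± 1.0 FPKM and held in 6 of 6 fits. The number lower was 2 to 4 with 1 library left out.

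Among the cell type lists, 4 of 12 tested surface epithelium markers fell and none rose, 33.3% against 2.08% of all protein-coding genes called lower, with a list median of -0.34. Krt8 and Krt18, the keratins of simple epithelia, fell from 23.3 ± 1.35 to 16.4 ± 1.87 FPKM and from 10.04 ± 0.72 to 7.09 ± 0.23. Krt19 fell from 10.96 ± 0.47 to 7.96 ± 0.74 and Lgals7 from 18.2 ± 2.12 to 12.6 ± 0.80. Krt18 held in 6 of 6 fits, Krt8 in 4, Lgals7 in 2 and Krt19 in 0, with a lowest limma adjusted p of 0.0522 for Krt19. The summed level of the list was 289 to 298 FPKM at PD14 and 179 to 240 at PD16. The 4 called members, each averaging 10.04 to 23.3 FPKM on PD14, made up a small part of this sum. The lowest change of the list, -0.63 on the log2 scale, was in a member that was not called. The mesothelial gene Upk3b did not follow, at 7.76, 13.4 and 8.50 FPKM on PD14 and 8.92, 9.77 and 11.4 on PD16. The number lower was 1 to 3 with 1 library left out, and 1 without PD14 replicate 3. Of 4 tested markers of the rete ovarii, 3 fell, beside the same 2.08% of all protein-coding genes: Krt8 again, Emx2 (18.4 ± 1.60 to 13.5 ± 0.44 FPKM, 5 of 6 fits) and Pla2g1b (-0.57 on the log2 scale, 1 of 6 fits).

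Granulosa cell markers moved in both directions, with 5 of 25 called against 4.86% of all protein-coding genes, 3 higher (Amh, Esr2 and Bex4, the last from 126 ± 10.3 to 204 ± 30.1 FPKM) and 2 lower (Cyp19a1 and Kitl, the ligand of the oocyte receptor Kit, from 55.5 ± 4.75 to 38.9 ± 4.36). The Bex4 call held in 3 of 6 fits and the Kitl call in 0. None of 17 theca markers and none of 19 stromal fibroblast markers was called by limma, and 5 and 2 had an unadjusted p under 0.05. Of 39 oocyte markers, Bmp15 was the single one called, against 2.78% of all protein-coding genes called higher, and the list median was -0.15. Without PD14 replicate 2, which lay at -0.15 for the list against 0.14 and 0.17 for replicates 1 and 3, 4 markers were called lower and the median was -0.25; without PD14 replicate 3, none was called and the median was -0.07. The oocyte list summed to 2675 to 3369 FPKM at PD14, 3420 to 3709 at PD15 and 2618 to 2789 at PD16.

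Of 17 macrophage and antigen presentation genes, Lyz2 rose from 8.91 ± 0.50 to 15.8 ± 3.70 FPKM, in 1 of 6 fits, and no other was called, where 2.78% of all protein-coding genes were called higher. None of 8 tested red blood cell markers was called by limma (3 had an unadjusted p under 0.05); their changes were all below 0, with a median of -0.41, and the defining globin gene Hba-a1 was at 74.9, 85.9 and 101 FPKM on PD14 and at 62.2, 82.8 and 41.4 on PD16. The summed level of the list was 195 to 246 FPKM at PD14 and 142 to 199 at PD16. The part of red cells and surface epithelium in the other results was not tested. Of 22 endothelial markers, 2 were called lower, against 2.08% of all protein-coding genes: the angiopoietin-receptor relative Tie1 and Ccl21a, a chemokine of lymphatic vessels (11.5 ± 1.61 to 5.93 ± 1.38 FPKM). Tie1 was lost in all 6 fits (limma adjusted p from 0.0639 to 0.134) and Ccl21a held in 2, so that 0 or 1 marker was called lower with 1 library left out.

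**Figure D4:**
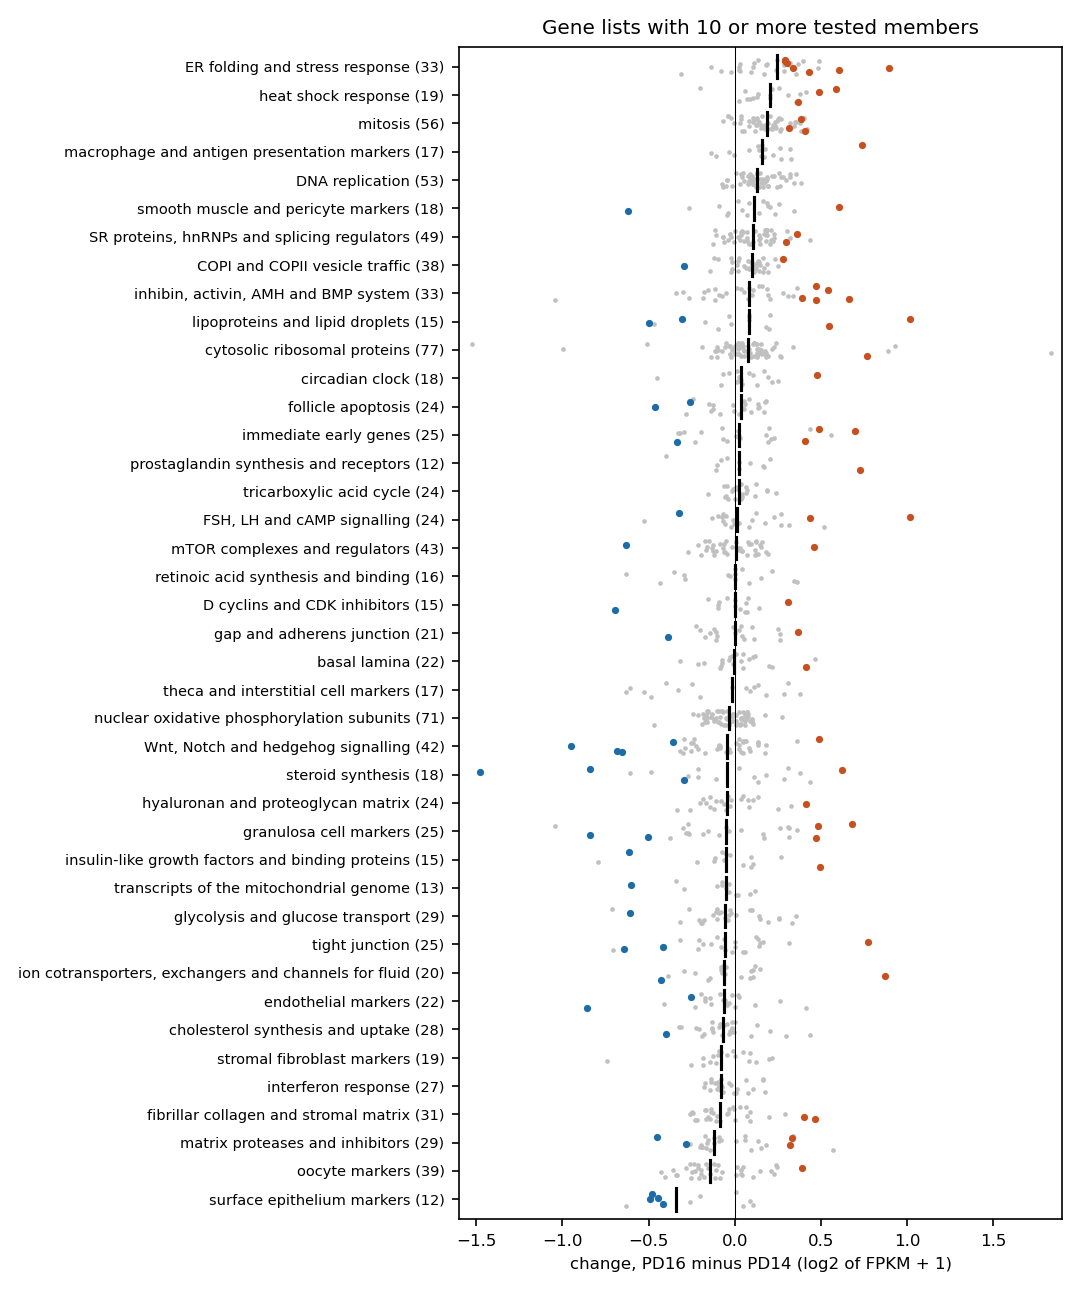
Change from PD14 to PD16 (x axis, log2 of FPKM + 1) of each tested member of the gene lists with 10 or more tested members, with called genes in orange (higher) or blue (lower), other members in grey, the list median as a black bar and the number tested in parentheses. The ER folding list has the highest median, 0.24, and the surface epithelium list the lowest, -0.34.

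None of 71 nuclear genes of oxidative phosphorylation and none of 24 of the tricarboxylic acid cycle was called by limma (3 and 1 had an unadjusted p under 0.05), with medians of -0.03 and 0.02, and of 29 glycolysis and glucose transport genes Aldoc alone was called (2.13 ± 0.16 to 1.06 ± 0.18 FPKM, 1 of 6 fits), against 2.08% of all protein-coding genes called lower. Of 43 genes of the mTOR complexes and their regulators, 2 were called, near the 4.86% of all protein-coding genes called in either direction. Ddit4, which encodes the mTORC1 inhibitor REDD1, fell from 57.2, 48.9 and 53.8 FPKM to 33.3, 37.8 and 31.2 and held in 6 of 6 fits. Telo2, an assembly factor of PI3K-related kinases, rose from 3.48 ± 0.29 to 5.15 ± 0.25, a call that held in 1 of 6. The kinase gene Mtor itself was at 10.2, 10.6 and 9.93 FPKM on PD14 and at 9.09, 9.92 and 10.8 on PD16. Of 15 tested genes of lipoproteins and lipid droplets, 2 rose and 2 fell, against the same 4.86%. The apolipoprotein gene Apoa4 rose from 20.9 ± 4.76 to 42.9 ± 6.56 and the fatty acid transporter Cd36 from 7.06 ± 0.35 to 10.8 ± 1.13, whereas the lipid droplet genes Plin1 and Plin3 fell from 6.97 ± 0.70 to 4.65 ± 0.74 and from 49.5 ± 1.06 to 39.8 ± 0.55 FPKM. Apoa4 held in 5 of 6 fits, Plin3 in 4, Cd36 in 3 and Plin1 in 1.

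The PD15 mean was between the PD14 and PD16 means for 311 of the 345 higher and 217 of the 258 lower protein-coding genes. These genes were called for a wide gap between PD14 and PD16, so the counts are a description with no test.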

How the data were processed

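Total RNA of mouse ovary was sequenced in 3 libraries each from PD14, PD15 and PD16. The authors deposited FPKM values, scaled to exon length and to the mapped fragments of each library; HISAT2 2.0.5 and mm10 are named in the submitters' processing notes, and the counting tool is not given in the sources used here. Depth was estimated from the steps of the low values with exon lengths of an mm10 annotation, and 95.3 to 96.0% of these values were whole multiples within 0.05. Because FPKM are not counts, no count test was used.

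Values were transformed as log2(FPKM + 1), so that changes of low genes are understated, and fitted with limma 3.58.1 in R 4.3.3 (intensity trend, all 9 libraries in 1 model). The contrast was PD16 minus PD14 over genes with a mean above 1 FPKM on PD14 or PD16. P-values are two-sided and were adjusted by the Benjamini-Hochberg method over all genes tested. The fit was tried on simulated data with 200 of 15232 genes changed. For PD16 minus PD14 it recovered 58.5%, 93.5% and 97.5% of changes of 0.5, 1 and 2 on the log2 scale. False calls numbered 9, 7 and 11. The simulated noise was independent between genes, so libraries that deviate over whole gene lists were not represented.

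Named genes are the largest rises and falls, the most abundant called genes, called members and first members of each list, genes the study measured, and calls kept in all leave-one-out fits. Outside this rule, chosen after values were seen, are Gdf9, Upk3b, Edem1, Eno1, Tpm3-rs7 and the genes and lists that the text marks so. Some named genes, and the counts that rest on them, are not reported here. The members and lists were chosen with earlier results of these data known. Tables and figures were made with Python 3.11.15, pandas 2.3.3 and Matplotlib 3.10.9. The alternatives tried were other pseudocounts, filters, scalings, limma settings and sets of libraries.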

Additional observations from a re-analysis of the deposited data

How the results depend on the processing

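The counts of 393 higher and 308 lower genes stayed within 1.5 times of these values for both directions under pseudocounts of 0.1 and 0.5, a mean above 5 FPKM, protein-coding genes only, median-ratio, quantile and cyclic loess scaling, removal of an exon length trend (chosen after seeing the data), no intensity trend, robust moderation and array quality weights, and without any 1 of the PD15 libraries. Testing every gene above 0 FPKM in any library gave 102 higher and 70 lower among 33957 genes, rescaling to TPM gave 208 higher and 213 lower, and fitting the PD14 and PD16 libraries only gave 184 and 139. A replicate block gave 141 and 99. Deviations of same-numbered libraries correlated at 0.0251, -0.016 and -0.218, and those of differently numbered libraries at -0.148 to 0.158. With 3 libraries per day, these correlations cannot tell whether the numbers pair the libraries. With 1 library left out, the higher genes ranged from 61 (without PD16 replicate 1) to 374 (without PD15 replicate 3) and the lower genes from 43 (without PD14 replicate 3) to 301 (without PD15 replicate 3). No named gene that was called changed its direction under any setting, but many lost their call. The PD14 and PD16 libraries of called genes did not overlap, so only settings that rescale or adjust the values could have reversed a direction. Of 181 named calls, 115 were lost when every gene above 0 FPKM was tested and 82 with the replicate block. Fitting the PD14 and PD16 libraries only lost 64, and rescaling to TPM lost 51. The cause of these shifts was not tested.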

Other observations

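Some called genes have near-identical copies, among which fragments may be divided by the counting. Tpm3 fell from 23.2 ± 3.65 to 11.6 ± 0.43 FPKM while its copy Tpm3-rs7 rose from 50.7 ± 9.51 to 73.6 ± 5.14. Eno1b fell from 14.1 ± 1.75 to 6.29 ± 0.80 FPKM, while Eno1 was at 39.9, 36.9 and 43.3 on PD14 and at 49.0, 47.2 and 37.6 on PD16, without a call. The Tpm3 and Eno1b calls held in all 6 fits with 1 PD14 or PD16 library left out, and the Tpm3-rs7 call in 1. The changes of these genes are uncertain for that reason.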
